A study of Brassica napus with 12 samples.

Results

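On chromosome C01 of Brassica napus, 2671 loci between the first locus of the chromosome and the one at position 24166557 form a stretch whose expressed loci were lowest in the leaf library herbivory replicate 41, and lowered to a lesser extent in herbivory replicate 42 and UV-B replicate 42. The expressed loci with the same Arabidopsis matches on chromosome A01 kept their median level in all 3. The loci were chosen by their place on C01, and the ends of the stretch were themselves selected on the measured values of herbivory replicate 41. The low level of the stretch in all 3 libraries is therefore given as a description and carries no test. The 2671 loci are 65.7% of the 4064 placed on C01 and part of the 101040 loci of the whole series. The positions are those of the deposited tables, which name no genome build, and which arm of the chromosome the stretch covers could not be read from them. The last locus on C01 starts at 38821886.

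B. napus is an allotetraploid, with an A subgenome from an ancestor shared with Brassica rapa and a C subgenome from an ancestor shared with Brassica oleracea. Most of its genes are therefore present as homoeologues, one on an A chromosome and one on the matching C chromosome, and C01 is the counterpart of A01. The transcript level of a gene in a leaf is then the sum of what both copies, and any further duplicates, deliver.

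The study asked how UV-B radiation, feeding by Plutella xylostella larvae (diamondback moth) and methyl jasmonate (MeJA), a defence hormone, alter leaf transcripts. RNA was sequenced from true leaves of 21-day-old plants of RV31, a line derived from the cultivar Westar, and 12 labelled libraries fall into 6 groups of 2, each holding the replicate numbers 41 and 42. Plants of every group were raised in white light of 70 µmol m−2 s−1. By the paper's methods, plants for the UV-B treatment and its control spent the night before in dimmer white light. The white light control was then given white light of 70 µmol m−2 s−1 without UV-B, and the UV-B group received UV-B at 3 µmol m−2 s−1 for 4 h. The herbivory group had larvae on the leaves for 1 h, and the sources differ on whether the wait before harvest ran from the start or the end of feeding. The methods describe the feeding as taking place in dimmer white light beside unfed plants, whereas the control labelled here is the white light group of the UV-B treatment, so feeding and light cannot be told apart in that comparison. The MeJA group was sprayed with 4 mL of 100 µM MeJA and the water group with 4 mL of distilled water. The remaining control received 4 mL of 0.01% ethanol and 0.01% UN65, and all were harvested 4 h later. By the paper's methods, the MeJA solution also contained ethanol and the wetting agent UN65 at these concentrations. That control therefore matches the MeJA spray in solvent, whereas the water group differs from it in MeJA and solvent together. The study's design speaks of separate biological replicates and its methods of replicates that were pooled, and the labels do not say how many plants made up a library. The p-values below therefore measure only the spread between these libraries, which may be technical.

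Values are FPKM (fragments normalised to the length of the transcript and to all mapped fragments). Each library was then put on a common scale through the median of its ratios to the average library, giving scaled FPKM. The divisors ran from 0.716 to 1.04, and the number of reads behind a library is unknown. Transcripts of Rubisco activase (RCA, 8 loci) summed to between 2623 and 16273 scaled FPKM and those of the light-harvesting protein LHCB2.1 to between 228 and 2922, while the floral gene AGAMOUS (6 loci) stayed at or below 0.154, AP3 (4 loci) at or below 1.70 and AP1 (6 loci) between 3.90 and 13.9. RBCS1A, a Rubisco small subunit gene matched by 1 locus, lay between 0.206 and 19.6, and no locus carried the match of LHCB1.1. In a bulk leaf sample, fewer cells of a type and less RNA per cell cannot be told apart.

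Of the 2671 loci, 1163 had a median of at least 1 scaled FPKM over the 12 libraries, 595 had at least 5, and 746 were listed at 0 in every library. The share with a median of at least 1 was 43.5% in the stretch, 34.5% on the rest of C01 and 42.3% over all loci. Matches to Arabidopsis were given for 2261 loci (84.6%, against 84.8% of all loci), and 1708 of these matches (75.5%) were to genes of Arabidopsis chromosome 4, which supplied 14.9% of the matches over all loci. A further 249 were to chromosome 3. Read along C01, the leading matches ran down chromosome 4 from a median of AT4G36920 in the first 2 Mb to AT4G29520 between 4 and 6 Mb, went on at AT4G18975 between 6 and 8 Mb, climbed from AT4G22110 to AT4G26340 between 8 and 14 Mb, fell to AT4G14760 by 18 Mb, and changed to chromosome 3 (AT3G46060 to AT3G49390) beyond 18 Mb.

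On A01, 1631 loci shared an Arabidopsis gene with a locus of the stretch, of which 929 had a median of at least 1. Conversely, 1683 of the 2671 loci had such a partner and 988 had none. In 1223 cases the match was one to one, with no other locus on C01 or A01 carrying the same gene. A further 6617 loci with the same Arabidopsis genes lay on other chromosomes or on unplaced sequence.

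The level of a library is given as the median over loci of log2((scaled FPKM + 1)/(median library + 1)), so that 0 is the level of the median library. For the 1163 loci of the stretch it was −2.05 in herbivory replicate 41, −0.55 in herbivory replicate 42 and −0.43 in UV-B replicate 42. In the other 9 libraries it lay between 0.06 and 0.12. The 3 low libraries thus came from 2 of the 6 groups, and the remaining UV-B library, replicate 41, stood at 0.11 among the others. Replicates 41 and 42 differed by a median of −1.57 under herbivory and 0.60 under UV-B, against −0.02 to 0.02 in the 4 other groups.

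**Figure D1:**
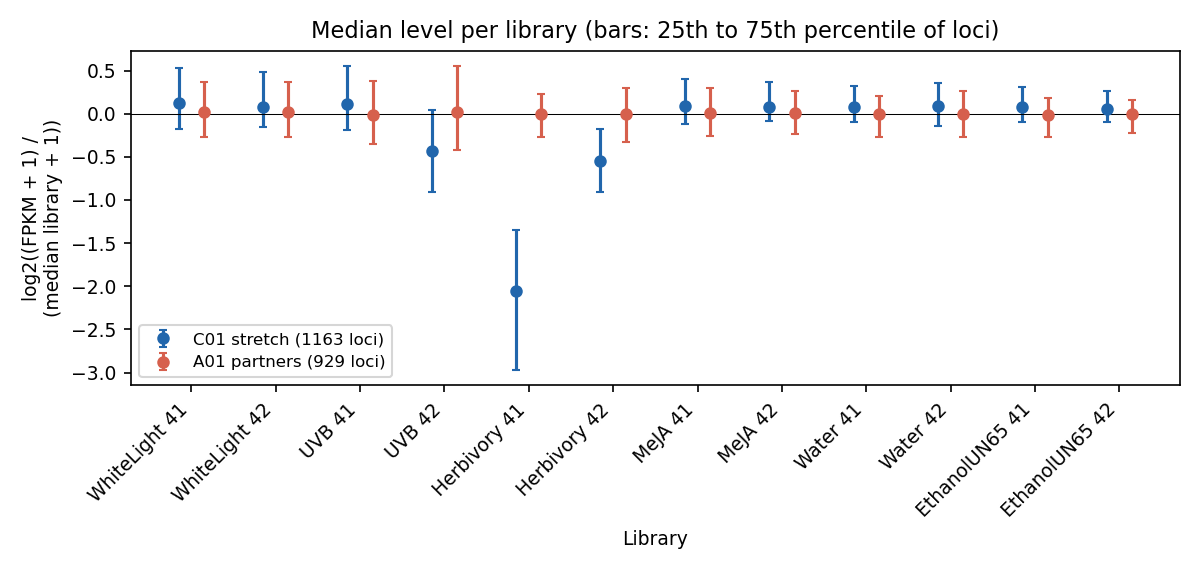
Median level of the C01 loci (blue) and of their A01 partners (red) in each of the 12 libraries, as log2((FPKM + 1)/(median library + 1)) on scaled FPKM, with bars from the 25th to the 75th percentile of loci. The C01 loci sit at −2.05, −0.55 and −0.43 in herbivory replicates 41 and 42 and UV-B replicate 42, while the A01 partners stay between −0.02 and 0.02 in all 12 libraries.

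On the linear scale, the 595 loci with a median of at least 5 kept a median of 2.14% of their median level in herbivory replicate 41 (25th to 75th percentile 0.0140% to 13.5%). They kept 57.9% in herbivory replicate 42 and 75.3% in UV-B replicate 42, and between 102% and 120% in the other 9 libraries. In herbivory replicate 41 nearly the whole set was affected: 549 of the 595 loci (92.3%) had their lowest value of all 12 libraries there, 413 were under 10% of their median and 149 were listed at 0. Counted over the 1163 loci, 383 were listed at 0 in herbivory replicate 41, 5 in herbivory replicate 42, 11 in UV-B replicate 42 and at most 6 in any other library. Such a 0 is what the table lists and, without read counts, sets no upper limit on expression.

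The lowering had a similar depth along most of the stretch. In 2-Mb bins from the first locus to 18 Mb, the level in herbivory replicate 41 lay between −1.80 and −2.37, and it was −1.93 and −1.74 in the bins from 20 to 22 and from 22 to 24 Mb. Between 18 and 20 Mb it was −0.11. All 112 windows of 51 neighbouring loci in the stretch were at or below −1 in herbivory replicate 41, from −1.10 to −2.62, and none of the 112 was that low in any other library. Because the stretch was selected on herbivory replicate 41, the count for that library restates the selection. In herbivory replicate 42 and UV-B replicate 42 all 112 windows were below 0, from −0.77 to −0.27 and from −0.76 to −0.13. Windows below 0 numbered between 3 and 13 in the other 9 libraries. On the rest of C01, where 43 windows were laid, herbivory replicate 41 ranged from −0.11 to 0.10.

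**Figure D2:**
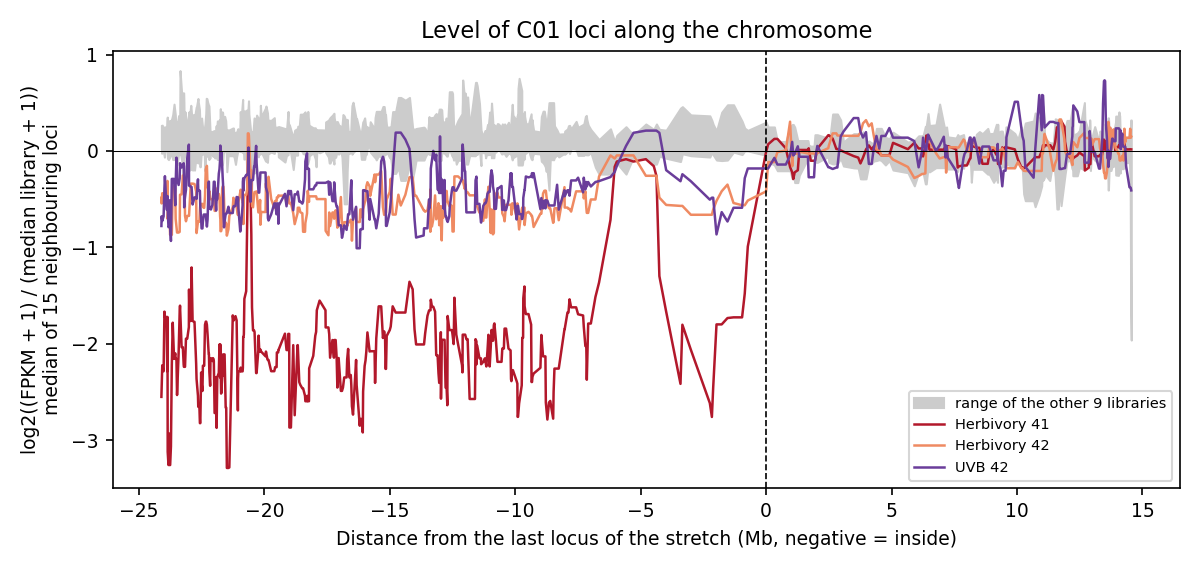
Median level of 15 neighbouring loci along C01 against the distance in Mb from the last locus of the stretch (negative inside, dashed line at 0), for herbivory replicates 41 and 42 and UV-B replicate 42, with the range of the other 9 libraries in grey. Herbivory replicate 41 runs near −2 inside the stretch, returns to the level of the other libraries at 0, and also does so at 2 places within the stretch, near −21 Mb and between about −6 and −4 Mb.

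At the outer end, which was itself selected on these values, the level changed over a few loci. Of the 5 loci just inside with a median of at least 1, BnaC01g26510D (CYCD3;3, a D-type cyclin) was listed at 0 in herbivory replicate 41, BnaC01g26530D (VFB2, an F-box protein) kept 1.27% of its median and BnaC01g26580D (XCP2, a xylem cysteine peptidase) kept 3.68%. The next, BnaC01g26640D, stood at 198% of its median, and the last, BnaC01g26710D at 24166557, kept 44.8%. The change was thus not placed more closely than between 23564449, the start of BnaC01g26580D, and 24199630. The 5 loci just outside, from BnaC01g26760D at 24199630 to BnaC01g26840D (AXR4, needed for auxin transport) at 24338156, were at 98.9% to 146% of their medians. The most abundant of these, BnaC01g26800D (TLP18.3, a thylakoid lumen protein), had 267 scaled FPKM in herbivory replicate 41 against a median of 183. The last 10 loci inside had a level of −1.20 in herbivory replicate 41 and the first 10 outside had 0.14. At the chromosome start, 4 of the first 5 such loci were at 1.31% to 16.7% of their medians, and BnaC01g00060D, with a median of 1.01 scaled FPKM, was at 97.7%.

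Within the stretch, 90 of the 1163 loci (7.74%) held at least 50% of their median level in herbivory replicate 41, and 35 of these lay side by side in runs of at least 5 such neighbours. Joining runs separated by a single locus gave 3 blocks, of 7, 7 and 22 loci. The locus so joined was BnaC01g24110D, at 48.1% of its median. These blocks were picked for their values in herbivory replicate 41 after those had been seen. The longest spans 17965597 to 19797281, 1.83 Mb with 80 loci, of which 22 had a median of at least 1 and 21 kept at least 50%. Its neighbours on either side, BnaC01g23860D and BnaC01g24700D (PCL1, a clock gene), were listed at 0 and at 18.5% of their medians.

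The long block held RPL9 (BnaC01g24010D, a ribosomal protein), with 157 scaled FPKM in herbivory replicate 41 and 66.0 in replicate 42, against 74.6 to 152 in the other 9 libraries. The other low libraries, whose values did not define the block, were not low there. Over its 22 loci the median was 0.02 in herbivory replicate 42 and 0.20 in UV-B replicate 42, whereas the 10 loci before it had −0.57 and −0.66 and the 10 after it −0.60 and −0.34. Of its 22 loci, 18 matched Arabidopsis genes between AT3G44730 and AT3G46600, next to AT3G46640 at the following low locus. Its loci had an A01 partner in 5 of 22 cases.

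The 2 short blocks lay close together, from 3449932 to 3517342 and from 3545489 to 3629677, with 2 lower loci between them, and matched neighbouring genes of Arabidopsis chromosome 4 (AT4G31550 to AT4G31840). They held WRKY18 and WRKY11, transcription factors of the defence response. BnaC01g06660D (WRKY18) had 4.87 scaled FPKM in herbivory replicate 41 and 0.323 to 14.4 in the other 9 libraries. BnaC01g06900D (WRKY11) had 16.4 in herbivory replicate 41 and 7.20 to 30.3 in the others. Herbivory replicate 42 was at 0.47 and 0.07 in these blocks and UV-B replicate 42 at −0.23 and 0.04, so the 3 libraries that were low in the stretch were within the range of the other 9 here. That range was wide, from −0.56 to 0.69, with 7 loci to a block.

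Outside the blocks, 55 of 1127 loci (4.88%) kept at least 50%, in runs of no more than 3 neighbours, and the level there was −2.11, −0.57 and −0.45 in herbivory replicates 41 and 42 and UV-B replicate 42. The 5 loci with a median of at least 5 that stood highest in herbivory replicate 41 relative to their median were BnaC01g24670D, BnaC01g26640D, BnaC01g24010D (RPL9), BnaC01g20780D (EXPB3, an expansin of the cell wall) and BnaC01g06870D (CSLC5, a cellulose-synthase-like protein). Of these, BnaC01g24670D, BnaC01g24010D and BnaC01g06870D lay in a block. BnaC01g20780D, which lay in none, had 7.36 scaled FPKM against 4.23 to 12.2 in the other 9 libraries.

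The share kept was also set beside the presence of an A01 partner, as a description. Among the loci with a median of at least 5, the 487 with an A01 partner kept a median of 1.95% in herbivory replicate 41 and 21 of them (4.31%) kept over 50%. The 108 without one kept 3.77%, and 19 of them (17.6%) kept over 50%. With the 3 blocks left out the medians were close, 1.84% with a partner (480 loci) and 2.00% without (97 loci), and 14 (2.92%) and 8 (8.25%) kept over 50%. Across 416 pairs with a C01 median of at least 5, the residual level of the C01 copy in herbivory replicate 41 had a Spearman's rho of 0.045 and, on log2(scaled FPKM + 1), a Pearson's r of 0.161 with the level of the A01 copy there, and a rho of 0.278 with its own median. For the share of the median that was kept, rho was −0.154 with the A01 level and 0.0028 with the C01 copy's own median. These are correlations across loci of 1 library, which share its scaling and mapping and are not independent replicates. The median levels of the copies themselves were related (rho 0.673).

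The A01 partners were at −0.009 in herbivory replicate 41, within the range of −0.016 to 0.021 spanned by the other 9 libraries. They stood at −0.009 in herbivory replicate 42 and 0.018 in UV-B replicate 42. The 6617 loci elsewhere with the same Arabidopsis genes, of which 2599 had a median of at least 1, were at 0.010 in herbivory replicate 41, also within their range of −0.014 to 0.013. A rise of the remaining copies that would make up for the C01 loci was therefore not seen in the medians. The quartiles of the A01 partners in herbivory replicate 41, −0.27 and 0.23, were likewise among the narrower of the 12 libraries.

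In 803 one-to-one pairs with a summed median of at least 2 scaled FPKM, the C01 copy supplied a median of 2.11% of the pair in herbivory replicate 41. It supplied 37.5% in herbivory replicate 42 and 38.4% in UV-B replicate 42, against 52.6% to 53.4% in the other 9 libraries. The pair sums fell with it, to 52.2%, 81.9% and 86.4% of their median, where the other 9 libraries had 102% to 107%. In herbivory replicate 41 the sum was below its median in 744 of the 803 pairs (92.7%). The A01 copy alone was above its median in 374 pairs (46.6%), and in 377 to 429 pairs in the other 9 libraries. Set against the usual level of the A01 copy alone, the pair sum in herbivory replicate 41 was higher by a median log2 of 0.06, and in the other 9 libraries by 0.92 to 1.02.

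Sorting those pairs with an A01 median of at least 1 by the share that the C01 copy had over all libraries gives the size of the lowering per class, which by arithmetic follows the C01 share when one copy is low and the other is not. Where C01 had supplied up to 25%, the pair sum in herbivory replicate 41 was at 91.3% of its median (60 pairs). It was at 61.7% where the share was 25 to 50% (332 pairs), at 45.5% where it was 50 to 75% (323 pairs) and at 29.1% above 75% (43 pairs). The A01 copies in the same classes were at −0.01, 0.01, −0.03 and −0.18. The last was within the range of the other 9 libraries, −0.27 to 0.37, and the third lay just below theirs, −0.02 to 0.03. The C01 share was computed with herbivory replicate 41 among the 12 libraries.

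**Figure D3:**
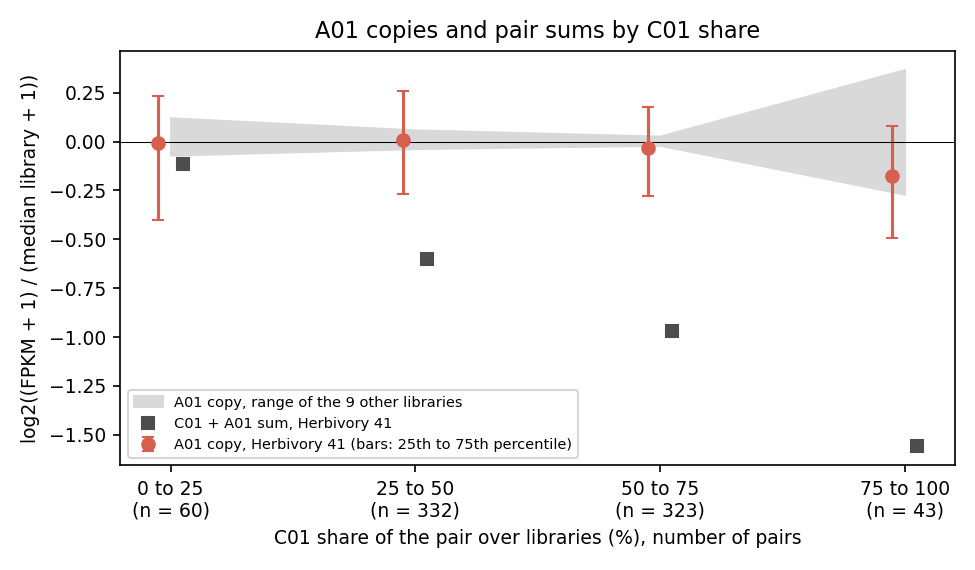
Median level of the A01 copies (red, bars from the 25th to the 75th percentile of pairs) and of the C01 plus A01 sums (black squares) in herbivory replicate 41, by the share of the pair that C01 supplied over the 12 libraries, with the number of pairs under each class. Grey marks the range of the A01 copies in the other 9 libraries. The squares drop from −0.11 to −1.56 with the C01 share while the red points stay between −0.18 and 0.01.

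Summed over the stretch, the 2671 loci delivered 1765 scaled FPKM in herbivory replicate 41 and 9566 in herbivory replicate 42. The other libraries delivered between 16760.4 and 25661, with UV-B replicate 42, at 18980.4, inside that range. The 1631 A01 partners delivered 15626 and 13119.5 in the herbivory libraries, within 12703 to 21296 in the 9 libraries at the normal C01 level, and 28601 in UV-B replicate 42, the highest of all 12. The C01 share of both sums was 10.2% in herbivory replicate 41, 42.2% in herbivory replicate 42 and 39.9% in UV-B replicate 42, and between 54.6% and 58.7% in the others. The total of all scaled FPKM differed too, from 672204 in herbivory replicate 42 to 1331772 in UV-B replicate 42, so shares of that total are also given. In herbivory replicates 41 and 42 and UV-B replicate 42, C01 made up 0.207%, 1.42% and 1.43% of it, against 2.21% to 2.61% in the others. The A01 partners made up 1.83%, 1.95% and 2.15%, against 1.71% to 1.88%, so the last 2 lay above that range. Both together made up 2.04%, 3.37% and 3.57% in these libraries and 3.97% to 4.47% in the others. A few very abundant loci weigh heavily in such sums, with 24 loci of the stretch at a median of 100 or more.

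**Figure D4:**
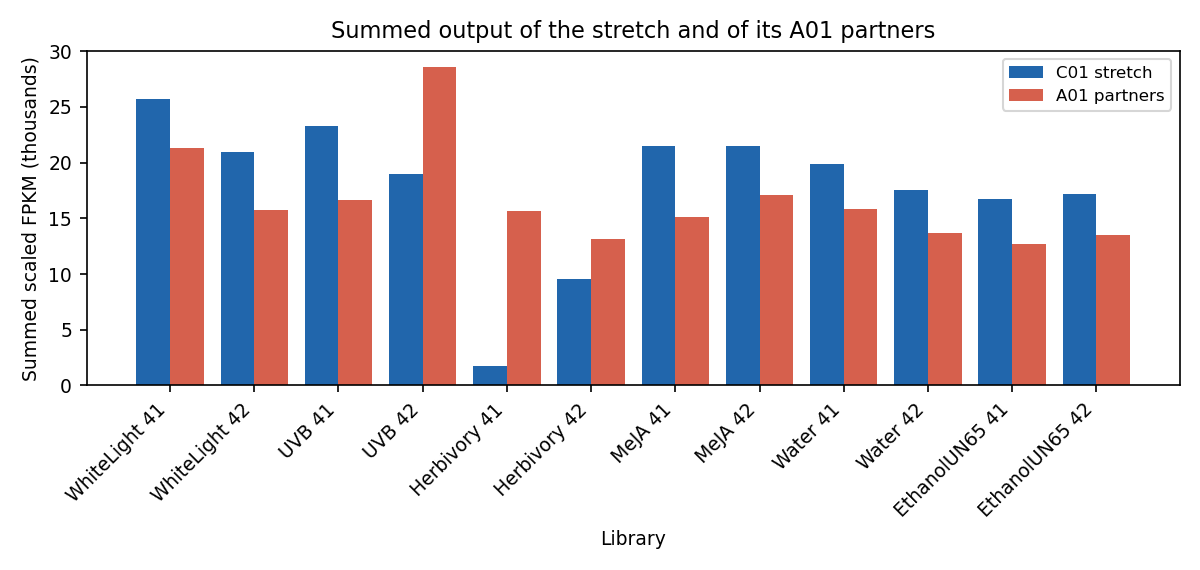
Sum of scaled FPKM (axis in units of 1000) over the 2671 C01 loci (blue) and their 1631 A01 partners (red) in each of the 12 libraries. The C01 bar is above the A01 bar in 9 libraries and below it in UV-B replicate 42 and both herbivory replicates, where it falls to 1765 scaled FPKM in replicate 41.

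The 10 one-to-one pairs with the highest summed medians were mostly genes of the chloroplast and of photorespiration. BnaC01g09730D (PSAE1, a subunit of photosystem I, C01 from 5714980) had 765 and 525 scaled FPKM in white light, 177 and 208 under UV-B, 3.28 and 113 under herbivory, 513 and 450 with MeJA, 847 and 554 with water, and 557 and 579 with ethanol and UN65. Its A01 copy, BnaA01g08150D, had 256 and 193 in white light, 66.5 and 142 under UV-B, 174 and 71.5 under herbivory, 196 and 159 with MeJA, 280 and 164 with water, and 215 and 179 with ethanol and UN65. The C01 copy, usually the higher of the pair, was the lower in herbivory replicate 41 alone.

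BnaC01g12690D (PSBQ1, of the oxygen-evolving complex of photosystem II) had 0.0883 scaled FPKM in herbivory replicate 41, 58.5 in replicate 42, 382 in UV-B replicate 42 and 232 to 692 in the other 9 libraries. BnaA01g11190D, its A01 copy, had 801 and 227 under herbivory and 441 to 1263 in the other 9 libraries. BnaC01g12660D, matched to the related gene PSBQ2, lies nearby at 8093397, and whether reads were shared between them was not tested. BnaC01g23800D (PSBO2, of the same complex) had 0.0571 in herbivory replicate 41 and 153 to 343 in the other 9 libraries, while BnaA01g19750D had 386 and 233 to 576. In both pairs the A01 copy stayed within the range of the other 9 libraries where the C01 copy was nearly unmeasured.

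BnaC01g19630D (PORB, which makes chlorophyllide from protochlorophyllide in the light) had 0.104 in herbivory replicate 41, 53.2 in replicate 42, 18.0 and 15.1 under UV-B and 105 to 442 in the 8 libraries of the other groups. BnaA01g16440D had 205 and 67.5 under herbivory, 23.4 and 22.9 under UV-B and 111 to 472 in those 8. Both copies were thus low under UV-B in both replicates, whereas in herbivory replicate 41 the C01 copy was the lower by orders of magnitude.

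For SHM1, the mitochondrial serine hydroxymethyltransferase of photorespiration, BnaC01g01090D had 12.5 and 180 under herbivory and 153 to 705 in the other 9 libraries, and BnaA01g00170D had 525 and 362 under herbivory. GLDP1, the P protein of glycine decarboxylase, kept more: BnaC01g05230D had 37.9 and 311 under herbivory and 198 to 1026 in the other 9 libraries. In the remaining 4 pairs the C01 copy in herbivory replicate 41 had 4.12 (AT4G32260, a chloroplast ATP synthase subunit), 27.0 (FSD1, an iron superoxide dismutase), 0.262 (SEP1, a stress-enhanced light-harvesting-like protein) and 0.625 scaled FPKM (ACP4, an acyl carrier protein). FSD1 was the exception among the 10, because its C01 copy in herbivory replicate 41 was close to the lowest value of the other 9 libraries, 36.4, and its A01 copy was also low there, with 102 against a median of 335.

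**Figure D5:**
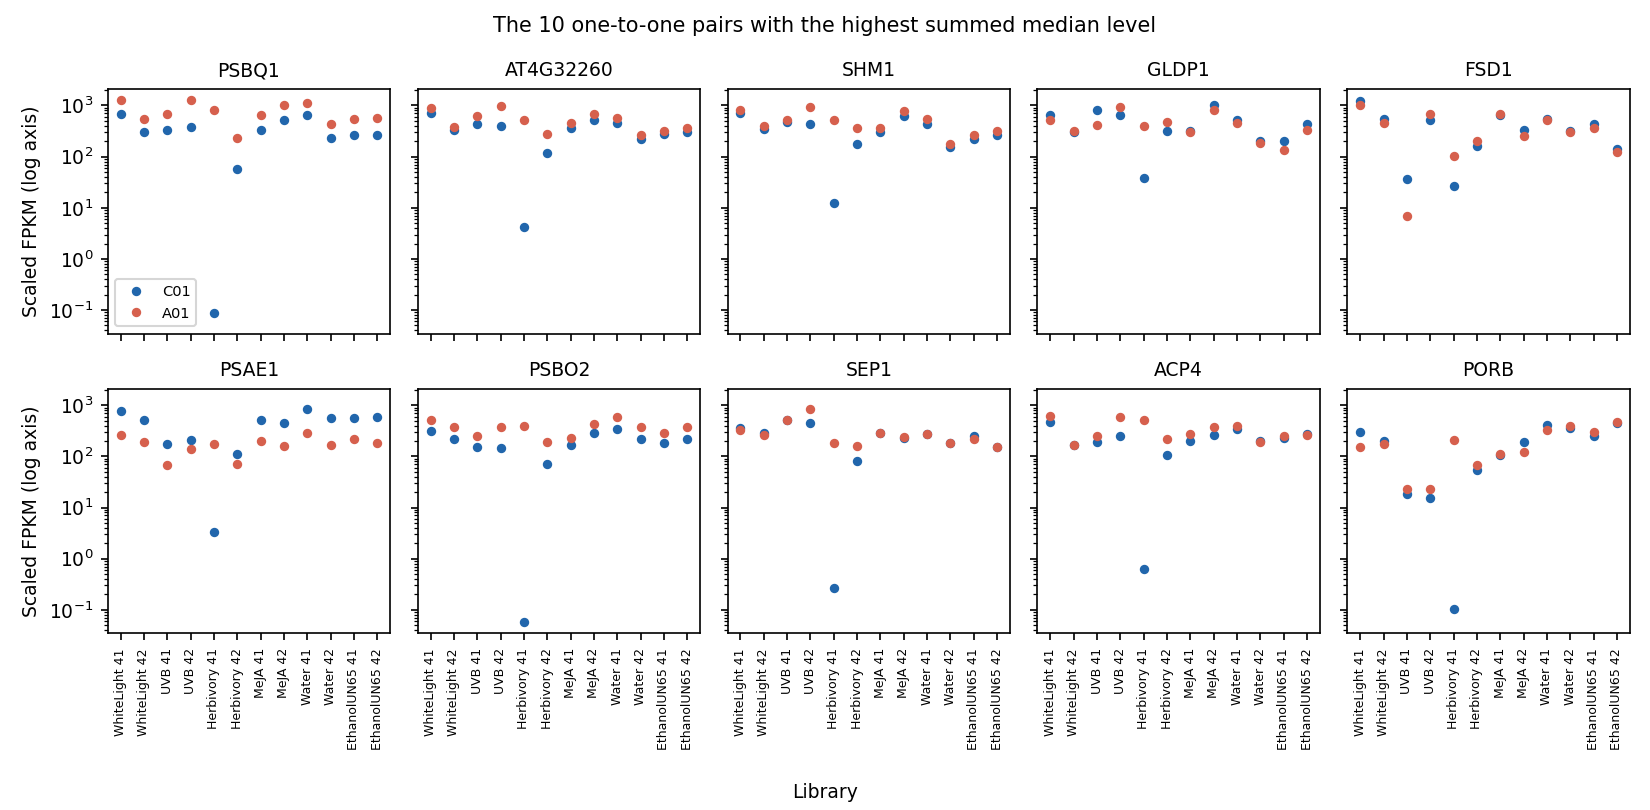
Scaled FPKM (log axis) of the C01 (blue) and A01 (red) copies of the 10 one-to-one pairs with the highest summed medians, in each of the 12 libraries. In herbivory replicate 41 the C01 copy lies below the A01 copy in all 10 pairs, from 0.0571 scaled FPKM for PSBO2 to 37.9 for GLDP1.

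Gene lists written from general knowledge held 82 genes, 40 of them with a locus in the stretch, which gave 41 loci. Of the 31 with a median of at least 1, 20 were under 10% of their median in herbivory replicate 41 and 3 were over 50%. Over all 1163 such loci of the stretch, 797 (68.5%) were under 10%, so the lists were close to the stretch as a whole. Of the 23 A01 partners of these lists with a median of at least 1, 14 were above their median in that library, where 450 of all 929 (48.4%) were. Among photosystem and chlorophyll genes, 6 of 7 were under 10%, including BnaC01g10870D (CHLI1, of magnesium chelatase) with 0.110 scaled FPKM against a median of 114, and the exception, BnaC01g23240D (CHLG, chlorophyll synthase), had 24.3 against 57.6. Of 5 genes of carbon fixation and photorespiration, 3 were under 10% and none was over 50%.

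Of the phenylpropanoid genes, which make lignin and sinapate precursors and on which the study centred, 3 of 5 loci in the stretch had a median of at least 1. BnaC01g02400D (F5H1, ferulate 5-hydroxylase) had 1.94 and 9.28 scaled FPKM under herbivory, 58.8 in UV-B replicate 42 and 7.14 to 124 in the other 9 libraries. BnaA01g01400D, the A01 copy, had 31.0 and 18.4 under herbivory. A wide spread was common to both copies, which had 124 and 115 in white light replicate 41 and 33.3 and 37.4 in replicate 42. BnaC01g01050D (ELI3-1, of the cinnamyl alcohol dehydrogenase family) was listed at 0 in herbivory replicate 41, with 0.914 to 15.5 in the other 9 libraries, and BnaA01g00140D had 11.3. BnaC01g03510D (MYB32, a repressor of the pathway) had 0.982 against a median of 5.70. No locus of the stretch carried the match of CCoAOMT1 or ELI3-2.

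BnaC01g19060D (VTC2, GDP-L-galactose phosphorylase of ascorbate synthesis) had 0.274 and 22.1 scaled FPKM under herbivory, 820 and 119 under UV-B and 9.57 to 168 in the 8 libraries of the other groups. BnaA01g15950D had 157 and 134 under herbivory and 332 and 650 under UV-B. The copies thus stood in opposite order in the 2 UV-B libraries. The glucosinolate gene CYP79B2 (BnaC01g00800D, of indole glucosinolate synthesis) was listed at 0 in herbivory replicate 41 and had 14.95 in replicate 42. Its range in the other 9 libraries was 1.05 to 85.7.

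Among 15 loci of hormone and defence regulators, 12 had a median of at least 1, of which 7 were under 10% and 3 over 50%. Over the 1163 loci of the stretch, 68.5% were under 10% and 7.74% kept at least 50%. The 3 were WRKY18, WRKY11 and BnaC01g15640D (WRKY53), which had 2.68 in herbivory replicate 41 and 0.235 to 8.25 in the other 9 libraries. WRKY18 and WRKY11 lay in the short blocks, which were picked for keeping their level there, so nothing is read from this count. The highest of the list, BnaC01g02910D (SEN1, a gene of dark-induced senescence), had 0.124 and 0.782 under herbivory and its A01 copy, BnaA01g01780D, had 0.220 and 0.297, so here both copies were below all other libraries in both herbivory libraries. TUB9, the single housekeeping gene with a locus in the stretch (BnaC01g12380D, a tubulin), was listed at 0 in herbivory replicate 41, with 5.30 to 13.1 in the other 9 libraries and 5.22 for its A01 copy. Of the floral regulators, BnaC01g16370D (AGL24) went the other way, with 2.28 and 1.06 under herbivory and 0 to 0.326 in the other 9 libraries, and BnaC01g01710D (AP2) had 1.62 against a median of 5.62.

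Loci that the annotation places on C01 without a position also differed. Of 149 with a median of at least 1, 35 were listed at 0 in herbivory replicate 41, against at most 2 in any other library. Their level was −0.74 there, −0.18 in UV-B replicate 42 and −0.13 in herbivory replicate 42. The other 9 libraries lay between −0.01 and 0.13. Of the 65 with a median of at least 5, 22 were under 10% of it in herbivory replicate 41.

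The treatment comparisons were fitted in limma with all 12 libraries, and a locus counted as called when its change reached 1 on the log2 scale with a p under 0.05 after Benjamini-Hochberg adjustment. For herbivory against white light, which the choice of the stretch used, 0 of 1372 loci tested were called, where 11 of 50280 (0.0219%) were called over all loci. At the same time the median log2 fold change of the stretch was −1.33 and 1292 of its loci were below 0. An unadjusted p under 0.05 was found for 797 (58.1%) of them, where 9.12% of all loci had one. Among the 1050 A01 partners tested, 0 were called, 70 (6.67%) had an unadjusted p under 0.05, and the median was −0.05. The locus with the smallest p, BnaC01g20840D (unknown protein), had a log2 fold change of −2.34 ± 0.35 (SE) and an adjusted p of 0.149 in limma. The partner with the smallest p, BnaA01g03470D (also of unknown function), had 6.86 and 17.7 scaled FPKM under herbivory and 0.877 and 1.87 in white light (log2 fold change 2.38 ± 0.39, limma adjusted p = 0.192).

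That result turned on which herbivory library was used. Without herbivory replicate 42, with the remaining library assumed to vary like those of the other groups, 442 of 1359 loci (32.5%) were called, all lower, where 1.15% of all 49722 loci tested were called. The stretch was selected on that same library, so this count restates the selection and nothing is read from it. Without herbivory replicate 41, the median log2 fold change was −0.63 in the stretch and 0 over all loci.

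The authors' own group values for UV-B are the mean of the 2 labelled libraries, whereas their herbivory value for the stretch, a sum of 9091 FPKM, differs from the 5294 that the mean of the 2 labelled libraries gives. Their white light sum differs as well, at 17291 in the UV-B comparison and 19456 in the herbivory comparison, against 19206 for the mean of the labelled libraries. The counts below for both comparisons therefore rest on control values other than that mean. In these values C01 supplied 40.8% of the summed output of the stretch and its A01 partners in the herbivory group, against 56.3% for white light in the same table, and 47.7% in the UV-B group. At the study's thresholds (fold change of 2 and 3 FPKM in a group), 430 of 854 loci of the stretch (50.4%) were lower under herbivory, where 4.7% of 31408 loci were lower in all. The 430 were 29.1% of the 1477 lower loci of the whole series. Of the A01 partners, 24 of 675 (3.56%) were lower and 17 higher, and of the rest of C01, 12 of 362 (3.31%) were lower. For UV-B, 185 of 856 loci of the stretch (21.6%) were lower, where 10.7% of 30762 were lower in all, and 98 (11.4%) were higher, where 16.5% were in all. The stretch was chosen from low values in single libraries. Its shares are therefore a description, and nothing about herbivory or UV-B is read from them.

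For UV-B against white light, 24 of 1372 loci of the stretch (1.75%) were called, 16 higher and 8 lower, where 3.54% of all loci were called. Of the A01 partners, 40 of 1050 (3.81%) were called, 27 higher and 13 lower. The smallest p in the stretch belonged to BnaC01g22830D (ELIP2, an early light-induced protein that guards the photosystems), with 1.81 and 4.65 scaled FPKM in white light and 54.1 and 131 under UV-B (log2 fold change 4.42 ± 0.57, limma adjusted p = 0.0114). It lay in the stretch and yet was highest in UV-B replicate 42. The partner with the smallest p was BnaA01g16830D (unknown protein), with 8.34 and 8.60 in white light and 43.5 and 71.8 under UV-B (2.59 ± 0.29, limma adjusted p = 0.0075).

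SEN1 was called higher under UV-B in both copies, from 2.50 and 8.28 to 302 and 277 for BnaC01g02910D (log2 fold change 5.67 ± 1.21, limma adjusted p = 0.0422) and from 0.741 and 1.32 to 243 and 139 for BnaA01g01780D (6.52 ± 1.44, limma adjusted p = 0.0459). For PORB, the A01 copy BnaA01g16440D was called lower (−2.79 ± 0.50, limma adjusted p = 0.0281) and the C01 copy BnaC01g19630D, with a larger estimate and a wider error (−3.79 ± 1.39, limma adjusted p = 0.158), was not. The difference between the copies was not tested. Without UV-B replicate 42, the median log2 fold change of the stretch moved from −0.24 to 0.03, where that of all loci was 0.014. Without UV-B replicate 41 it was −0.56 in the stretch and −0.011 over all loci. The number of calls also moved with single libraries left out, controls included. The ethanol and UN65 libraries enter only through the shared estimate of the spread. Calls over all loci moved too, so these shifts are not read as a property of the stretch or its partners.

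The spray comparisons, whose libraries stood at the normal level in the stretch, showed no lowering. MeJA against water differs in solvent as well as in MeJA, and only MeJA against ethanol and UN65 has a matching solvent. For MeJA against water, 2 of 1372 loci and 2 of 1050 partners were called, all higher, where 0.449% of all loci were called, and the median log2 fold changes were −0.008 and −0.004. BnaC01g20260D (unknown protein) was listed at 0 in both water libraries and had 7.48 and 4.90 scaled FPKM with MeJA (limma adjusted p = 0.0328). It also had 4.20 and 6.03 under herbivory and was listed at 0 in white light, so it was measured in herbivory replicate 41, within the stretch. BnaC01g00790D (APK2, an APS kinase of sulphate activation) rose from 0.0796 and 0.0674 to 13.5 and 28.9 (limma adjusted p = 0.0487).

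Of the partners, BnaA01g07240D (an alkaline-phosphatase-like protein) rose from 1.31 and 0.899 with water to 51.2 and 54.8 with MeJA (log2 fold change 4.69 ± 0.35, limma adjusted p = 0.0064). BnaA01g07980D (NINJA, an adaptor of the jasmonate repressors) rose from 6.31 and 6.98 to 23.5 and 20.9 (1.60 ± 0.26, limma adjusted p = 0.0422). These counts also hung on single libraries, as did the count over all loci. Without any one UV-B, herbivory, MeJA or water library 0 loci of the stretch were called, and without either ethanol and UN65 library 1 was. For the partners the count was 5 without either white light library, 0 without water replicate 41 and 1 without any other. For ethanol and UN65 against water, and for MeJA against ethanol and UN65, 0 loci of the stretch and 0 partners were called in limma, where 0.00398% of all loci were called in each. In these comparisons 9 (0.66%) and 59 (4.30%) loci of the stretch had an unadjusted p under 0.05. So had 14 (1.33%) and 66 (6.29%) partners, where 2.97% and 8.73% of all loci had. The smallest p of the stretch in the comparison of the controls was that of BnaC01g21790D (a heavy-metal transport family protein), with a log2 fold change of −1.07 ± 0.30 and a limma adjusted p of 0.63. The partner was BnaA01g07240D (1.44 ± 0.34, limma adjusted p = 0.359). For MeJA against ethanol and UN65 they were BnaC01g20260D (2.15 ± 0.41, limma adjusted p = 0.203) and again BnaA01g07240D (3.25 ± 0.34, limma adjusted p = 0.0717).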

How the data were processed

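RNA from the 12 libraries was prepared with the TruSeq kit. The authors aligned reads with TopHat2 2.1.12 and deposited FPKM made by Cufflinks 2.2.1. The deposited matrix is named as counts but holds FPKM, since the mean of its UV-B columns matches, at each of the 101040 loci, the value for UV-B given in the authors' table (relative tolerance 0.0001). The authors' fold changes (log2) with their p and q columns, and 22 single-library columns that match no label, were not used. Matches and positions are the tables' own, and partners were matched on the Arabidopsis gene without its transcript suffix (1631, or 1599 with the suffix).

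Each library was scaled by the median of its ratios to the average library over 46905 loci above 0 in all libraries. Loci with at least 1 scaled FPKM in at least 2 libraries were fitted on log2(scaled FPKM + 1) in limma (version 3.58.1, R 4.3.3), using a trend and 6 group means. Fold changes on this scale understate those of low loci. One locus marked as having too much data was left out. Steps were tested on simulated data. Python 3.11.15 with pandas 2.3.3 gave the levels and sums. Read totals are unknown, so no counting interval is given.

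Named loci are the 10 most abundant one-to-one pairs, the 5 on each side of each end, those of the gene lists with a median of at least 1 (study genes and the highest of each list in full), the smallest p of each comparison, and the 5 that kept most in herbivory replicate 41. MeJA-called loci, PORB and SEN1 calls, AGL24, CYP79B2 and the loci of the blocks were named after their values were seen. The members and lists were chosen with earlier results of these data known. Alternatives were other scalings, pseudocount, filters, the compared groups alone, a replicate block, no minimum fold change, and each library left out.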

Additional observations from a re-analysis of the deposited data

How the results depend on the processing

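Herbivory replicates 41 and 42 and UV-B replicate 42 were the 3 lowest libraries in the stretch under every scaling, pseudocount, filter and reference tried. The depth in herbivory replicate 41 moved with the pseudocount and filter, to −4.08 with a pseudocount of 0.1, −1.56 with no filter and −2.95 for loci with a median of at least 5. With columns of equal totals UV-B replicate 42 went from −0.43 to −0.87 and herbivory replicate 42 from −0.55 to −0.28, which turned their order. Leaving out each library from the median library gave −2.08 to −2.02 there, −0.60 to −0.53 in herbivory replicate 42 and −0.49 to −0.39 in UV-B replicate 42. Leaving out the 3 blocks, added after the data were seen, gave −2.11, −0.57 and −0.45.

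The A01 partners of herbivory replicate 41 were the lowest of all only with the mean library as reference, at −0.11, where the 12 libraries lay between −0.11 and −0.03. Herbivory replicate 42 and UV-B replicate 42 were then at −0.099 and −0.0332. As deposited they were at −0.034 and −0.11, with columns of equal totals at 0.20 and −0.44, with no filter at 0.00419 and −0.0125, and with a median of at least 5 at −0.0788 and 0.17. With any library left out, the number is odd and the median library equals the value of a single library at each locus. Many loci then have a level of exactly 0, which pins a median that lies near 0. The A01 levels were 0 in both herbivory libraries and 0 to 0.00379 in UV-B replicate 42, and nothing is read from these values. The C01 sum of UV-B replicate 42 was 15703 as deposited, 11726 with equal totals and 13232 for one-to-one pairs, and its A01 sum was 23663 and 17670 (17669.6) for the first 2.

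Calls under UV-B were fragile. The 24 calls of the stretch became 12 with FPKM as deposited, 12 with equal totals, 5 with a pseudocount of 0.1, 15 with a filter at 5 and 0 with the compared groups alone, and 0 to 36 with a library left out, the lowest 0 and 1 without white light replicates 42 and 41. The 40 partner calls became 21, 20 and 0 as deposited, with equal totals and with the compared groups alone, and 1 to 42 with a library left out. The 2 calls of the stretch for MeJA against water became 0 with a pseudocount of 0.1, no filter or the compared groups alone. The 226 over all loci became 146, 61 and 0. The 2 partner calls became 5 as deposited, 1 with a pseudocount of 0.1 and 1 with no filter. They became 6 with a filter at 5 and 0 with the compared groups alone. Over all loci 268 were called as deposited and 298 with a filter at 5. Leaving a library out moved the calls here too, also over all loci. Against ethanol and UN65, 1 partner was called as deposited and 0 to 2 with a library left out. Herbivory calls were 0 to 442 in the stretch and 0 to 3 for partners, the highest without herbivory replicate 42. For ethanol and UN65 against water every alternative gave 0. The cause of these shifts was not tested, apart from the fewer libraries in some fits.

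Replicate numbers 41 and 42 did not pair the libraries: same-numbered libraries correlated above 0.1 in 4 of 15 pairs of groups (r from −0.372 to 0.407). With the replicate block, calls in the stretch were 20 for UV-B and 0 for MeJA against water, partner calls were 26 and 1, and the other 6 counts stayed at 0. Over all loci 1298 and 99 were called for UV-B and for MeJA against water.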
